A study of Homo sapiens with 12 samples.

Results

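The levels of 10 genes of the heat shock system were described across 12 RNA-seq libraries of 143B cells: the HSP90 genes HSP90AA1 and HSP90AB1, the HSP110 gene HSPH1, the mitochondrial chaperonin pair HSPD1 (HSP60) and HSPE1 (HSP10), the small heat shock protein genes HSPB1, HSPB8 and CRYAB, the co-chaperone gene BAG3 and the transcription factor gene HSF1. They were chosen by symbol, and all 10 were found among the 24180 gene symbols of the count tables. Of these, 9 passed the filter on low counts and were tested; CRYAB did not, with 0 to 4 counts per library.

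HSP90 is an ATP-driven chaperone of the cytosol that holds kinases, steroid receptors and other client proteins in a form that can be activated, and HSP90AA1 is the more heat-inducible and HSP90AB1 the more constitutive of its genes. HSP60 forms a barrel in the mitochondrial matrix in which imported proteins fold, with HSP10 as its lid. Small heat shock proteins bind unfolding proteins without using ATP. BAG3 links HSP70 to the small heat shock protein HSPB8 and to autophagy. HSF1 is the factor that, once released from chaperones and assembled as a trimer, binds heat shock elements in the promoters of these genes, and its activity is set mainly on the protein and not through its own messenger RNA.

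143B is an established human osteosarcoma line derived from the HOS line, so all values come from 1 line, which the labels give as wild type. There were 4 groups of 3 libraries: NC, the control; BSG; M-BSG, which the titles equate with 5-MNP-BSG; and M-BSG-Hot, equated with 5-MNP-BSG (+). A bioactive borosilicate glass and heating by magnetic particles stand in the title of the series, and the comparisons ask, as far as the names tell, what the glass, its magnetic form and the heating did to the cells. All 12 samples, controls included, carry the same treatment text, which names 5-MNP-BSG and an alternating magnetic field (20A, 500H), so the labels do not tell which group received which material or field, at which dose or for how long. The culture medium was DMEM with 10% bovine serum, at 5% CO2 and 37 °C.

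The libraries held 34434993 to 38163152 counts. The 10 genes took 0.609% to 0.622% of them in NC, 0.706% to 0.726% in BSG, 0.647% to 0.688% in M-BSG and 0.615% to 0.654% in M-BSG-Hot, with 95% Wilson intervals of at most 0.00271 percentage points to either side, and the HSP90 pair made up 77.9% to 79.1% of the counts of the 10. The libraries BSG 1, M-BSG 1 and also M-BSG-Hot 3 stood apart in the share of counts in 83 cytosolic ribosomal protein genes, at 11.3%, 9.95% and 9.86%, while the other libraries lay at 7.55% to 9.18%. Of 9 bone and mesenchymal markers 7 were in the tables: VIM reached 3483 to 4641 CPM (the count relative to the TMM-adjusted total of its library), SPARC 321 to 392, RUNX2 10.2 to 16.9, COL1A1 5.23 to 8.91 and ALPL 1.81 to 3.56, while SP7 and BGLAP, markers of committed and mature osteoblasts, were at 0 to 0.131. The summed level of the immune markers was 120 to 166 CPM, nearly all CD68; that of the endothelial markers was 1.10 to 2.68, and that of the epithelial markers 13.9 to 22.3, nearly all EPCAM. Over all 15407 genes tested, 46.9% of those that differed between BSG and NC were higher, against 29.9% when scaled by library size only; the shares were 50.7% and 37.7% for M-BSG and 28.4% and 18.1% for M-BSG-Hot. Whether libraries of 1 group stem from different cultures is not in the labels, so p-values measure only the spread between these libraries, which may be technical.

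The promoter windows of RefSeq on human assembly GRCh38.p14, 300 bases around a gene start, were searched on both strands for the heat shock element written as the triplets GAA, TTC and GAA in a row with NN, 2 bases of any kind, between them, or the reverse complement TTC, GAA and TTC. Windows were given for 8 of the 10 genes, 12 windows in all, and 3 genes held an exact match: HSP90AA1, HSP90AB1 and HSPD1. Among all genes with a window 0.608% held one. The stretches below are shown because they carry these matches beside the 3 chaperone genes with the highest level per gene length. Capitals mark the element, letters run 5′ to 3′ on the strand of the gene, and overlapping matches are joined.
HSP90AB1 (chr6:44247758-44247863, plus strand): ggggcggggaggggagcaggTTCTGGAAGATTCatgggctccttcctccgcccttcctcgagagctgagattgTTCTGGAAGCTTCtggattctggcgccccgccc
HSP90AA1 (chr14:102087112-102087140, minus strand): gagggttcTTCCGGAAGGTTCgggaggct
HSPD1 (chr2:197500062-197500090, minus strand): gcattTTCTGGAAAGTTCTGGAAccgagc

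The HSP90AB1 stretch holds 2 separate elements, which begin 165 and 112 bases before the start site at 44247943, inside the gene and outside any exon of GENCODE 29. The HSP90AA1 element begins 88 bases before the start at 102087044, and lies in an annotated exon of a longer transcript. In HSPD1 2 matches overlap and form an 18-base run. RefSeq gives HSPD1 2 start sites: the run lies 228 bases before that at 197499840 and 189 bases into the transcribed side of that at 197500274. HSPE1 is transcribed in the opposite direction, and the edge of the run is 294 bases before its start at 197500379. The window searched for HSPE1 begins at 197500129, so the run lies outside it. GENCODE 29 annotates exons and UTRs of both HSPD1 and HSPE1 over the printed stretch. With at most 1 mismatch in the 9 fixed letters HSPB1 was added, and 7.6% of all genes then held a match. A match is a description of letters and not a measured site. The build behind the deposited counts is unresolved, since the processing notes list names of a mouse assembly beside human symbols, so these coordinates belong to RefSeq and not to the counts.

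In deposited FPKM, which divide counts by gene length and so allow genes to be compared, HSP90AA1 was the highest of the 10 in NC at 794 ± 16.0 FPKM (SD, n = 3). HSP90AB1 followed at 589 ± 3.21, HSPD1 at 351 ± 5.03 and HSPB1 at 164 ± 9.07. BAG3 stood at 49.1 ± 1.74, HSF1 at 34.7 ± 1.98, HSPH1 at 28.5 ± 0.201 and HSPE1 at 17.6 ± 0.867. Neighbours in this order did not overlap between libraries. HSPB8 came to 0.392 ± 0.0925 FPKM, and CRYAB was listed at 0 in 2 of the NC libraries and at 0.0211 in the other.

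HSPD1 and HSPE1 share a promoter region and their proteins work as a pair, and the table set their FPKM 18.7 to 21.2 apart as a ratio in NC. RefSeq lists a readthrough gene, HSPE1-MOB4, that spans HSPE1 and its neighbour; it has no row in the tables, and MOB4 itself had 0 to 4 counts. The level of HSPE1 is therefore uncertain, since reads that overlap several gene models can be lost or shared in counting. The same holds for CRYAB, which overlaps HSPB2 and HSPB2-C11orf52, and for HSPB8, which overlaps the antisense gene HSPB8-AS1, because the strand setting of the counting is not given in the sources used here. HSP90AA1 overlaps WDR20 and HSF1 overlaps DGAT1, which had 1496 to 1802 and 415 to 537 counts.

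**Figure D1:**
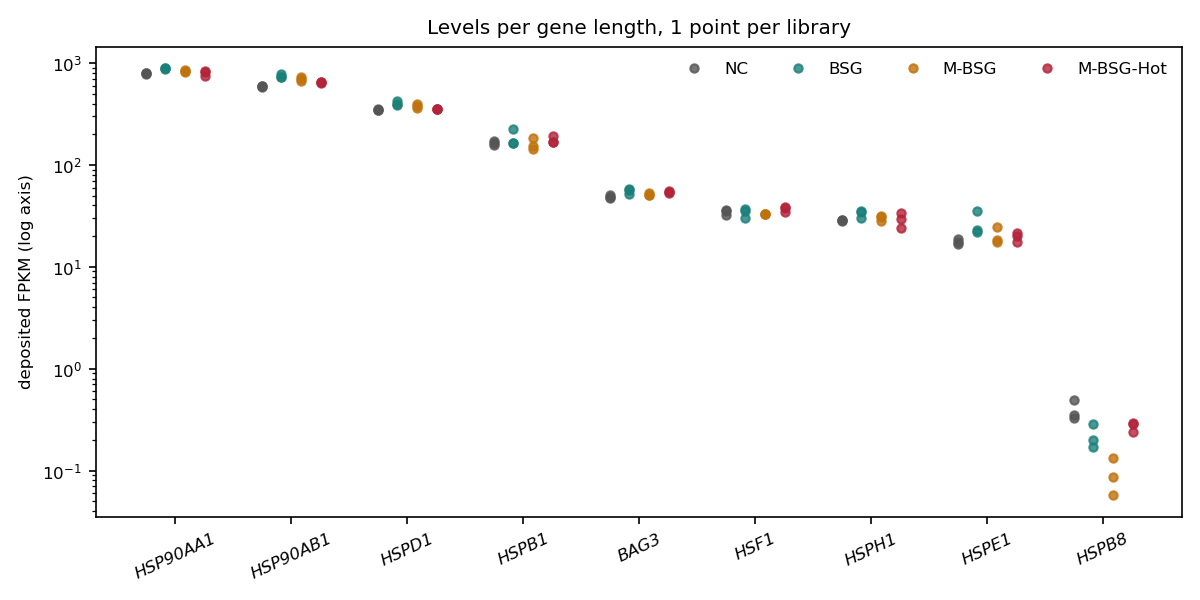
Deposited FPKM (log axis) of 9 genes, 1 point per library and 1 colour per group; CRYAB, listed at 0 in 6 libraries, is left out. The HSP90 pair lies between 586 and 888 FPKM in every library and HSPB8 at or below 0.498.

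Compared with NC, 6 of the 9 tested genes were higher in BSG and 0 were lower by edgeR's quasi-likelihood test with Benjamini-Hochberg adjustment over all genes (adjusted p under 0.05): HSP90AA1, HSP90AB1, HSPH1, HSPD1, HSPE1 and BAG3. Of all genes tested 5.5% were higher, 6.22% lower and 11.7% differed in either direction. The rises were small, with log2 fold changes of 0.23 to 0.68 and a median over the 9 genes of 0.26, beside -0.02 over all genes. At an unadjusted p under 0.05 there were also 6 higher and 0 lower. The share of all genes at that unadjusted threshold was not counted, here and below, so such counts have no background beside them. In such bulk libraries fewer cells that express a gene and less RNA per cell cannot be told apart. In M-BSG 1 gene was higher, HSP90AB1, and 1 lower, HSPB8, where 3.22% and 3.13% of all genes were and 6.35% differed in either direction. At an unadjusted p under 0.05 in M-BSG 2 were higher, HSP90AB1 and HSPD1, and 1 lower, HSPB8. In M-BSG-Hot 0 of the 9 passed the test in either direction, where 4.91% of all genes did; 2 were higher at an unadjusted p under 0.05, HSP90AB1 and BAG3, which DESeq2 also called, while limma called 0.

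Between the treated groups edgeR called 0 of the 9 genes in M-BSG against BSG (2 at an unadjusted p under 0.05), 0 in M-BSG-Hot against BSG (5) and 0 in M-BSG-Hot against M-BSG (1), and DESeq2 and limma also called 0. Of all genes 0.13%, 0.85% and 0.694% were called in these comparisons by edgeR at an adjusted p under 0.05. The median log2 fold changes of the 9 were -0.14, -0.16 and -0.02, beside 0.00 over all genes in each. In M-BSG against BSG the log2 fold changes of all 9 tested genes were below 0, from -1.26 for HSPB8 to -0.07 for HSF1. That of HSF1 was above 0 under 2 of the 22 alternative settings tried. The share of all genes below 0 was not counted, and their median was -0.0028. The 3 comparisons with NC share the NC libraries, and those with BSG share the BSG libraries, so their values stand side by side and do not support each other.

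**Figure D2:**
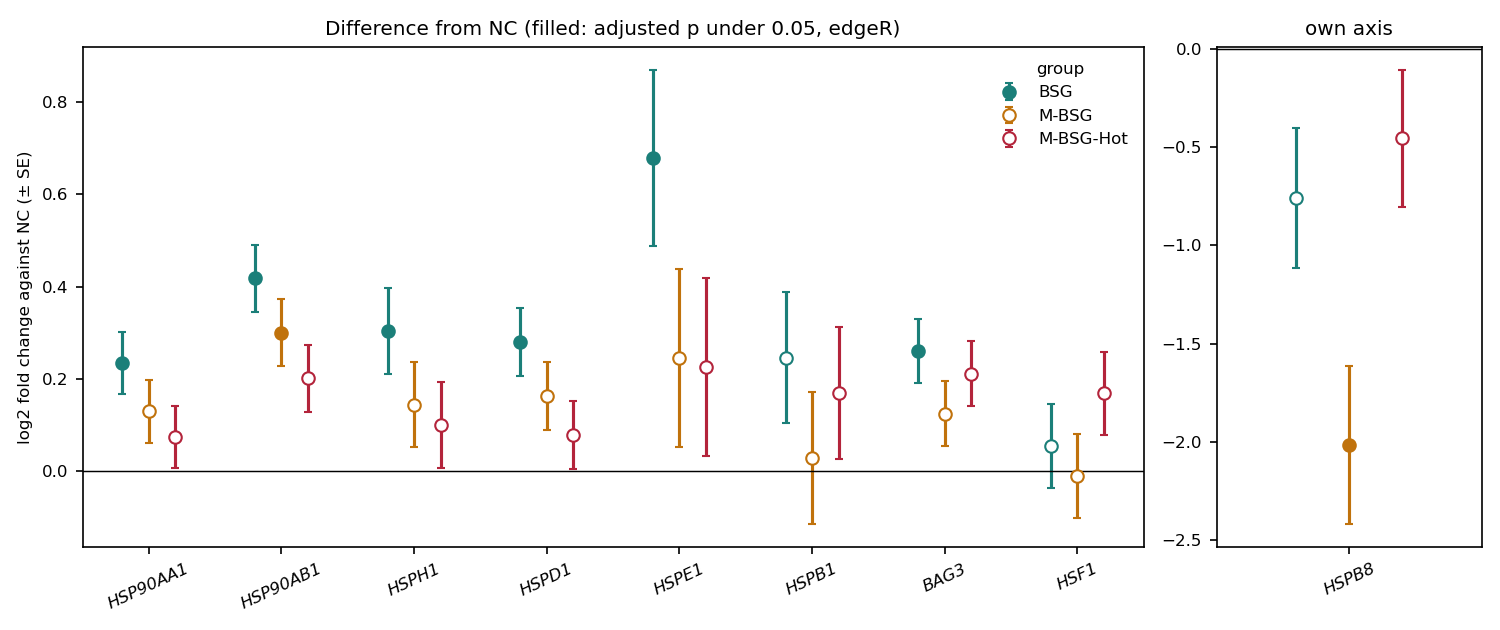
Log2 fold change against NC with its SE for the 9 tested genes, in BSG, M-BSG and M-BSG-Hot (3 libraries each); filled points passed edgeR's test at an adjusted p under 0.05, and HSPB8 has its own axis. In BSG 6 points are filled, in M-BSG those of HSP90AB1 and HSPB8, and in M-BSG-Hot 0.

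HSP90AB1 changed with the smallest adjusted p of the 10 genes in BSG. Its CPM were 1649, 1612 and 1613 for NC, 2325, 2068 and 2122 for BSG, 2127.5, 1899.9 and 1973 for M-BSG, then 1872, 1809.7 and 1922 for M-BSG-Hot. Every treated library lay above every NC library, and M-BSG-Hot lay below BSG without overlap. The rise was 0.42 on the log2 scale in BSG (SE 0.0730, edgeR adjusted p = 0.00212), or 1.34-fold. It held under all 22 alternatives tried, with adjusted p from 1.69e-08 to 0.0163.

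In M-BSG the log2 rise of HSP90AB1 was 0.30 (SE 0.0729, edgeR adjusted p = 0.0246; 1.22e-05 to 0.108 over the alternatives). That call was lost without NC 1 (adjusted p = 0.0764), NC 2 (0.103), NC 3 (0.108), M-BSG 1 (0.0771) or M-BSG 3 (0.0740). In M-BSG-Hot the log2 fold change was 0.20 (SE 0.0729) and did not pass (adjusted p = 0.159; 0.00662 to 0.383). It passed by DESeq2 (adjusted p = 0.0286), with the ribosomal protein share as a covariate (0.00662) and without the 3 libraries of high ribosomal protein share (0.04998). M-BSG-Hot against BSG gave -0.22 (95% interval -0.37 to -0.06, adjusted p = 0.220).

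HSP90AA1, the heat-inducible form, had CPM of 2988, 3041 and 3030 for NC, 3637.5, 3469 and 3553 for BSG, 3454, 3180.5 and 3275.5 for M-BSG, then 3281, 3217 and 3041 for M-BSG-Hot. BSG and M-BSG lay above NC without overlap, while M-BSG-Hot 3 fell inside the NC range. HSP90AA1 rose in BSG by 0.23 on the log2 scale (SE 0.0677, edgeR adjusted p = 0.0394), or 1.18-fold. The call was lost without NC 1 (adjusted p = 0.108), NC 2 (0.118), NC 3 (0.131), BSG 1 (0.0844), BSG 3 (0.0845) or M-BSG 3 (0.0625), and under 5 of 10 other settings, from 0.0504 with a strict count filter to 0.102 with library size only. In M-BSG its log2 fold change was 0.13 (adjusted p = 0.341; 0.0363 to 0.599 over the alternatives) and in M-BSG-Hot 0.07 (0.618; 0.267 to 0.968).

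The ratio of HSP90AA1 to HSP90AB1 FPKM within a library is free of the scaling between libraries. It was 1.31, 1.37 and 1.36 for NC, 1.14, 1.22 and 1.21 for BSG, 1.18, 1.21 and 1.20 for M-BSG, then 1.27, 1.29 and 1.15 for M-BSG-Hot. All 9 treated libraries lay below the 3 NC libraries. On the log2 scale the difference from NC was -0.18 in BSG, -0.17 in M-BSG and -0.13 in M-BSG-Hot. The two-sided exact permutation p was 0.1 in each, the smallest that 3 libraries against 3 allow, and 0.15 adjusted over the 6 ratio tests made. Such a ratio shows unequal change of the pair and not which gene changed.

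The co-chaperones of HSP90 hand it its clients or time its ATP cycle, and 24 of them and of its relatives were tested. In BSG 2 were higher and 0 lower by edgeR (5 and 0 at an unadjusted p under 0.05; 5 and 0 by DESeq2, 2 and 0 by limma). SUGT1, an adaptor of HSP90, rose by 0.36 on the log2 scale (SE 0.0836, edgeR adjusted p = 0.0138), and AHSA1, which speeds the ATPase of HSP90, rose by 0.32 (SE 0.0944, adjusted p = 0.0436). Over all genes edgeR called 5.5% higher and 6.22% lower in BSG, and 6.35% in M-BSG and 4.91% in M-BSG-Hot in either direction. The median of the list in BSG was 0.13, beside -0.02 over all genes. In M-BSG and M-BSG-Hot 0 of 24 were called by edgeR, DESeq2 or limma, with 2 higher and 0 lower, and 2 higher and 1 lower, at an unadjusted p under 0.05.

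HSPH1, an HSP110 protein that exchanges the nucleotide of HSP70, had CPM of 159, 156 and 155 for NC, 182, 199 and 199 for BSG, 166, 176 and 177 for M-BSG, then 193, 168 and 143 for M-BSG-Hot. BSG and M-BSG lay above NC, while those of M-BSG-Hot fell on both sides of it, with M-BSG-Hot 3 the lowest of all 12. In BSG HSPH1 rose by 0.30 on the log2 scale (SE 0.0931), with an edgeR adjusted p of 0.0498 just under the threshold. The call was lost without NC 1 (adjusted p = 0.105), NC 2 (0.146), NC 3 (0.153), BSG 2 (0.0858), BSG 3 (0.112), M-BSG 2 (0.0584), M-BSG 3 (0.0705) or M-BSG-Hot 2 (0.0602). It was also lost with library size only (0.156), no count filter (0.0658), a strict filter (0.0515) and the replicate number as a block (0.0554).

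In M-BSG-Hot the log2 fold change of HSPH1 was 0.10 (SE 0.0930; adjusted p = 0.628, 0.0530 to 0.963 over the alternatives). The library with the lowest HSPH1 of that group, M-BSG-Hot 3, had its highest ribosomal protein share, and with that share as a covariate HSPH1 was lower in M-BSG-Hot than in BSG (log2 fold change -0.28, adjusted p = 0.00478), against -0.20 (adjusted p = 0.357) without it.

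Of 20 other heat shock genes tested, which include the HSP70 and DNAJ partners of HSPH1 and HSP90, edgeR called 11 higher and 0 lower for BSG, 9 and 0 for M-BSG, then 7 and 0 for M-BSG-Hot. At an unadjusted p under 0.05 there were 14 higher and 0 lower, 9 and 0, and 10 and 1; DESeq2 called 12, 9 and 9 higher and 0 lower, and limma gave the same numbers as edgeR. Over all 15407 genes edgeR called 847, 496 and 215 higher and 959, 483 and 541 lower. The median log2 fold changes of the 20 genes were 0.42, 0.22 and 0.21, beside -0.02, -0.01 and 0.00 over all genes. HSPA2, an HSP70 of testis and muscle, rose by 2.57 in BSG (adjusted p = 1.1e-08), 1.97 in M-BSG and 1.75 in M-BSG-Hot. DNAJB1, the J-protein that delivers clients to HSP70, rose by 0.97 in BSG, 0.82 in M-BSG and 0.31 in M-BSG-Hot. HSPA1A, the heat-inducible HSP70, rose by 1.61, 0.79 and 1.13. Its near-identical copy HSPA1B, with which it may share reads, rose by 1.49, 1.03 and 0.93.

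The rises of the HSP90, HSP110, HSP60 and BAG3 genes were smaller in log2 than those of HSPA2, HSPA1A and DNAJB1 in BSG. Between treated groups, 1 of the 20 genes was lower in M-BSG than in BSG, HSPA1A (log2 fold change -0.81). In M-BSG-Hot against BSG 3 were lower, DNAJB1 (-0.66), HSPA2 (-0.82) and DNAJA1 (-0.34), and in M-BSG-Hot against M-BSG 1 was lower, DNAJB1 (-0.50). Over all 15407 genes 20, 116 and 92 were lower in these comparisons.

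**Figure D3:**
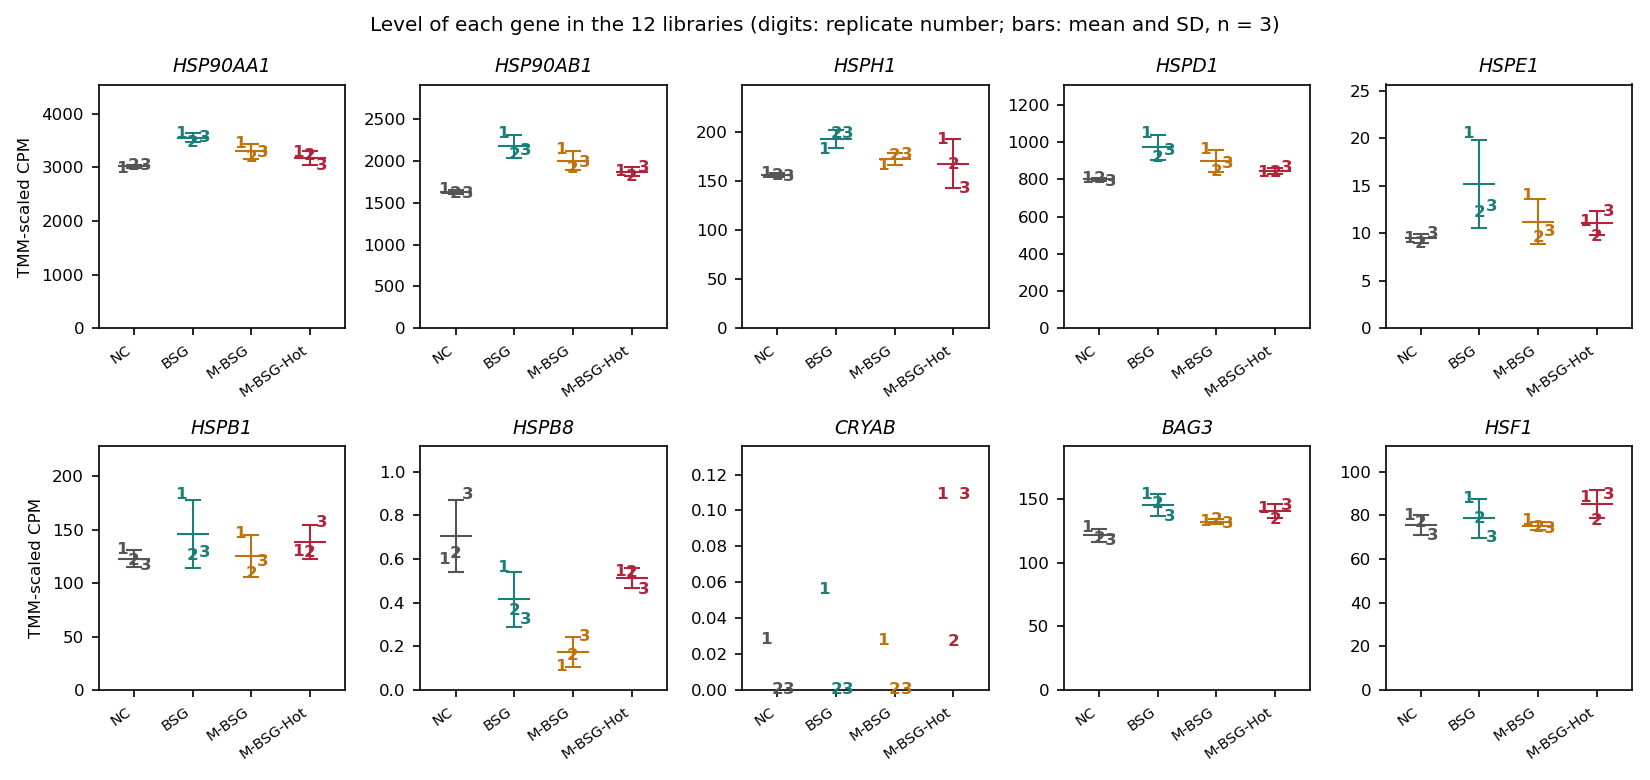
TMM-scaled CPM of each of the 10 genes in the 12 libraries; digits give the replicate number and bars the mean and SD of 3 libraries (points only for CRYAB). For HSP90AB1, HSPD1 and BAG3 every treated library lies above the 3 NC libraries, while HSPB8 is lowest in M-BSG.

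HSPD1, the HSP60 subunit, had CPM of 806, 804 and 790 for NC, 1047, 915 and 952 for BSG, 959, 842 and 887 for M-BSG, then 838, 835 and 861 for M-BSG-Hot. All 9 treated libraries lay above the NC libraries. It rose in BSG by 0.28 on the log2 scale (SE 0.0736, edgeR adjusted p = 0.0264), or 1.21-fold. The call was lost without NC 1 (adjusted p = 0.0742), NC 2 (0.0895), NC 3 (0.106), BSG 1 (0.0820) or BSG 3 (0.0540) and kept under the 10 other settings, with a range of 0.000898 to 0.106 in all. In M-BSG the log2 fold change was 0.16 (adjusted p = 0.252; 0.0302 to 0.500) and in M-BSG-Hot 0.08 (0.631; 0.470 to 0.954).

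HSPE1, the HSP10 lid, had the largest fold change of the 6 genes in BSG and also the widest spread. Its CPM were 9.50, 8.96 and 9.97 for NC, 20.5, 12.2 and 12.9 for BSG, 13.9, 9.59 and 10.2 for M-BSG, then 11.3, 9.71 and 12.3 for M-BSG-Hot. BSG lay above NC without overlap, with BSG 1 far above the other 2 libraries, while M-BSG and M-BSG-Hot overlapped NC. In BSG HSPE1 rose by 0.68 on the log2 scale (SE 0.191, edgeR adjusted p = 0.0359), or 1.60-fold. Without BSG 1 the log2 fold change was 0.41 (adjusted p = 0.144), and with the ribosomal protein share as a covariate 0.31 (0.125). The call was also lost without NC 1 (0.0889), NC 2 (0.125) or NC 3 (0.0873) and in a fit of NC and BSG alone (0.0506).

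The 3 libraries with the highest ribosomal protein shares (BSG 1, M-BSG 1, M-BSG-Hot 3) also had the highest HSPE1 of their groups. HSPB1, HSP90AB1, HSPD1 and HSF1 showed the same order, while HSPH1 was lowest of its group in these libraries. HSPE1 and HSPB1 are short transcripts, of 557 and 777 bases by the lengths behind the FPKM. The lengths of HSP90AB1, HSPD1 and HSF1 were 2856, 2360 and 2260 bases. In the 9 other libraries the HSPE1 CPM were 8.96 to 12.9. Leaving out the 3 libraries together kept the BSG call of HSPE1 (edgeR adjusted p = 0.0246). Its log2 fold change was then 0.39, against 0.68 with all libraries. Calls over all genes also rose in that setting, to 1103 higher and 1438 lower in BSG, from 847 and 959.

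The ratio of HSPD1 to HSPE1 FPKM was 20.0, 21.2 and 18.7 for NC, 12.0, 17.7 and 17.5 for BSG, 16.2, 20.7 and 20.6 for M-BSG, then 17.6, 20.3 and 16.6 for M-BSG-Hot. BSG lay below NC without overlap and the other groups overlapped it. The two-sided exact permutation p was 0.1 in BSG, the smallest possible, 0.8 in M-BSG and 0.3 in M-BSG-Hot.

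**Figure D4:**
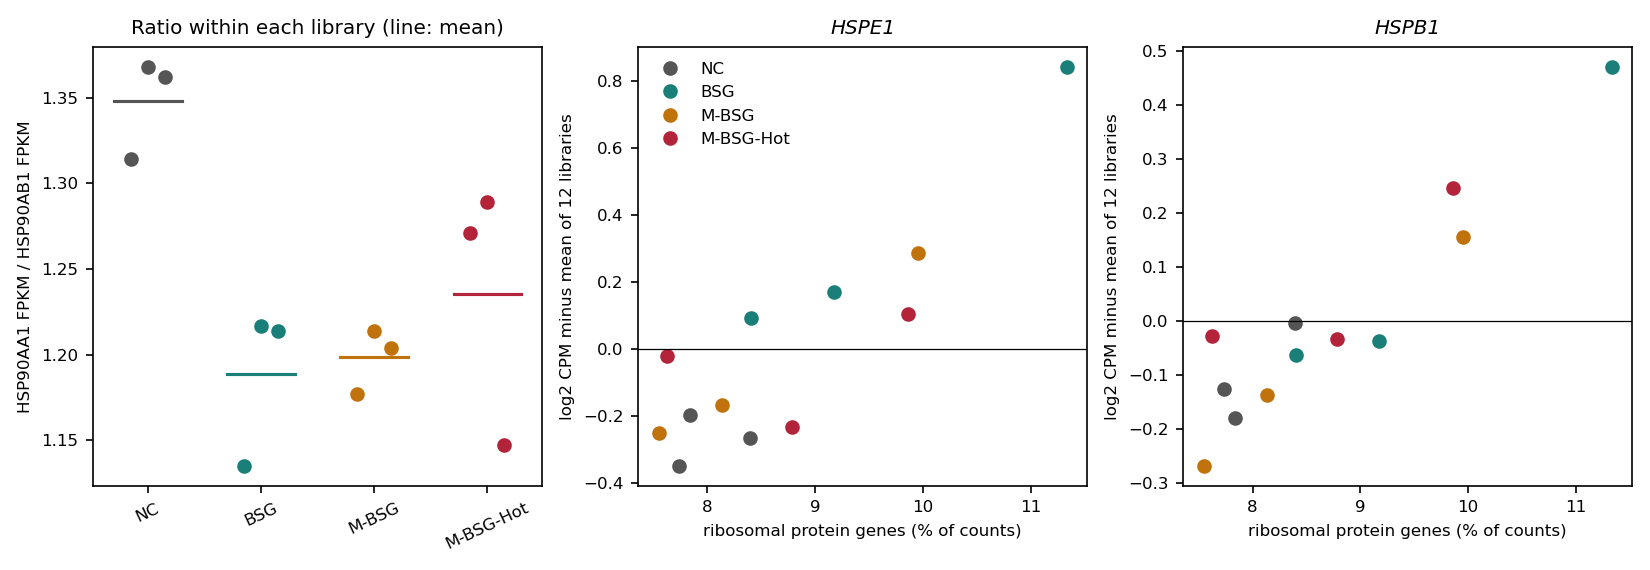
Left, ratio of HSP90AA1 to HSP90AB1 FPKM in each library with the group mean as a line; middle and right, log2 CPM of HSPE1 and HSPB1 minus the mean of the 12 libraries against the percent of counts in ribosomal protein genes. The 9 treated libraries lie below the NC libraries in the ratio, and BSG 1, at 11.3% ribosomal protein counts, is the highest in HSPE1 and HSPB1.

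Of 17 other mitochondrial chaperone and protease genes tested, edgeR called 2 higher and 1 lower for BSG, 0 and 1 for M-BSG, then 0 and 1 for M-BSG-Hot. In either direction edgeR called 11.7%, 6.35% and 4.91% of all genes in these groups. GRPEL1, the nucleotide exchange factor of the mitochondrial HSP70, rose by 0.28 in BSG (SE 0.0803, adjusted p = 0.0379), while its relative GRPEL2 fell by 0.28 (SE 0.0820, adjusted p = 0.0406). AFG3L2, a protease of the inner membrane, rose by 0.22 (SE 0.0661, adjusted p = 0.0492). SPG7, its partner, was the lower gene in M-BSG (log2 fold change -0.28) and GRPEL2 that in M-BSG-Hot (-0.33). At an unadjusted p under 0.05 2 genes were higher in M-BSG and 1 in M-BSG-Hot, and DESeq2 called 1 and 0 higher and limma 0 and 0.

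The cytosolic counterpart of HSP60 is the chaperonin TRiC, fed by prefoldin. Of 14 genes of these complexes 2 were higher and 0 lower in BSG by edgeR, CCT2 at 0.32 (SE 0.0822, adjusted p = 0.0222) and TCP1 at 0.25 (SE 0.0769, adjusted p = 0.0475), both chaperonin subunits. Over all genes edgeR called 5.5% higher in BSG, and 6.35% in M-BSG and 4.91% in M-BSG-Hot in either direction. In BSG all 14 were higher at an unadjusted p under 0.05, and DESeq2 called 7 and limma 2. The median was 0.25 beside -0.02 over all genes. In M-BSG and in M-BSG-Hot edgeR called 0, with 2 higher and 0 lower at an unadjusted p under 0.05 in each; DESeq2 called 1 and 0 and limma 0 and 0.

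HSPB1, or HSP27, the main small heat shock protein of these cells, had CPM of 132, 121 and 116 for NC, 183, 126 and 129 for BSG, 147, 110 and 120 for M-BSG, then 129, 129 and 157 for M-BSG-Hot. Each treated group overlapped NC, and in each the highest library was the one with the highest ribosomal protein share. The log2 fold change was 0.25 in BSG (95% interval -0.06 to 0.55, edgeR adjusted p = 0.258), 0.03 in M-BSG (-0.28 to 0.34, 0.954) and 0.17 in M-BSG-Hot (-0.14 to 0.48, 0.590). In BSG it lay between -0.05 and 0.34 over the alternatives, below 0 in 1 of them, and passed in 0 of 22.

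HSPB8, the partner of BAG3 in the selective autophagy of damaged proteins, was close to the limit of detection. It had 21, 24 and 34 counts for NC, 20, 14 and 12 for BSG, 4, 6 and 9 for M-BSG, then 20, 20 and 17 for M-BSG-Hot. As CPM these were 0.596, 0.623 and 0.894, 0.560, 0.366 and 0.324, 0.110, 0.160 and 0.245, and 0.544, 0.537 and 0.462. M-BSG lay below all other libraries, while BSG and M-BSG-Hot lay below NC without overlap. In M-BSG HSPB8 fell by 2.02 on the log2 scale (SE 0.402, edgeR adjusted p = 0.00712; 0.00156 to 0.0472 over 21 alternatives), and the call held in all 21 that tested it.

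The HSPB8 values of BSG and M-BSG-Hot against NC were -0.76 (adjusted p = 0.168; 0.126 to 0.459) and -0.45 (0.552; 0.470 to 0.882). M-BSG-Hot against M-BSG was 1.56 (95% interval 0.68 to 2.45) and did not pass (adjusted p = 0.148), and M-BSG against BSG was -1.26 (-2.17 to -0.35, adjusted p = 0.635).

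CRYAB, or alpha-B crystallin, a small heat shock protein of lens, heart and muscle, had 1, 0 and 0 counts for NC, 2, 0 and 0 for BSG, 1, 0 and 0 for M-BSG, then 4, 1 and 4 for M-BSG-Hot. A count of 0 allows up to 3 counts, or 0.0779 to 0.0851 CPM; only M-BSG-Hot 1 and M-BSG-Hot 3 lay above 3 counts. CRYAB was tested by edgeR only with no count filter, where 0 of 6 comparisons passed, with adjusted p from 0.477 to 1. Of 8 other small heat shock protein genes listed only HSPB11, which belongs to the transport complex of cilia despite its name, passed the filter; its log2 fold changes from NC were 0.40, 0.12 and 0.03, with 0 calls by edgeR, DESeq2 or limma and 0 at an unadjusted p under 0.05.

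Markers of muscle, a tissue rich in HSPB8 and CRYAB, summed to 0.306 CPM on average in NC, 1.76 in BSG, 0.850 in M-BSG and 0.920 in M-BSG-Hot, and ranged over the libraries from 0.260 to 2.66. Of the 6 markers listed 4 were in the tables, and ACTC1 carried the rise, from 0.163 CPM in NC to 1.37 in BSG, 0.669 in M-BSG and 0.839 in M-BSG-Hot. DES stayed at or under 0.280 CPM and CKM was at 0 in NC and M-BSG-Hot. The part of these markers in the HSPB8 and CRYAB values was not tested.

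BAG3 had CPM of 128, 119 and 118 for NC, 153, 147 and 136 for BSG, 132, 134 and 131 for M-BSG, then 142, 134 and 145 for M-BSG-Hot. All 9 treated libraries lay above the NC libraries. BAG3 rose in BSG by 0.26 on the log2 scale (SE 0.0701, edgeR adjusted p = 0.0293), or 1.20-fold. The call was lost without NC 2 (adjusted p = 0.120), NC 3 (0.132), BSG 1 (0.0818) or BSG 2 (0.0523), and with library size only (0.0892), no count filter (0.0785) or a fit of NC and BSG alone (0.0558).

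In M-BSG-Hot the log2 fold change of BAG3 was 0.21 (SE 0.0701, adjusted p = 0.118; 0.0153 to 0.367 over the alternatives), and it passed by DESeq2 (adjusted p = 0.0258) and with the ribosomal protein share as a covariate (0.0153). In M-BSG it was 0.12 (adjusted p = 0.387; 0.151 to 0.689). Unlike the HSP90 genes, BAG3 had a mean in M-BSG-Hot, 140 CPM, between those of M-BSG, 132, and BSG, 145, but M-BSG-Hot against M-BSG gave 0.09 (95% interval -0.06 to 0.24, adjusted p = 0.805).

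Of 8 BAG family genes and BAG3 partners tested, edgeR called 1 higher and 1 lower for BSG, 0 and 0 for M-BSG, then 0 and 2 for M-BSG-Hot. In either direction edgeR called 11.7%, 6.35% and 4.91% of all genes in these groups. BAG2, which releases HSP70 clients, rose by 0.28 in BSG (SE 0.0806, adjusted p = 0.0393). BAG5 fell by 0.29 in BSG (SE 0.0769, adjusted p = 0.0281) and by 0.31 in M-BSG-Hot (adjusted p = 0.0340), where BAG4 also fell, by 0.43 (adjusted p = 0.0362). In M-BSG 0 were higher and 2 lower at an unadjusted p under 0.05, and DESeq2 called 0 and 1 and limma 0 and 0; in M-BSG-Hot 0 were higher at an unadjusted p under 0.05 and by DESeq2 and limma.

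HSF1 itself had CPM of 79.7, 76.8 and 70.7 for NC, 87.7, 78.5 and 69.6 for BSG, 77.4, 74.2 and 73.8 for M-BSG, then 88.1, 77.8 and 89.4 for M-BSG-Hot. All groups overlapped NC, and M-BSG-Hot lay above M-BSG by a narrow margin. The log2 fold change was 0.05 in BSG (95% interval -0.14 to 0.25, edgeR adjusted p = 0.715), -0.01 in M-BSG (-0.21 to 0.18, 0.971) and 0.17 in M-BSG-Hot (-0.03 to 0.36, 0.375). HSF1 passed in 0 of 22 alternatives in each of these comparisons. In 4 alternatives for BSG and 8 for M-BSG its sign differed from these values.

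Of 11 other genes of the HSF family and of HSF1 control, edgeR called 2 higher and 1 lower for BSG, 2 and 0 for M-BSG, then 1 and 1 for M-BSG-Hot. In either direction edgeR called 11.7%, 6.35% and 4.91% of all genes in these groups. IER5, an immediate-early protein that brings a phosphatase to HSF1, rose by 0.94 in BSG (SE 0.0939, adjusted p = 2.02e-05), 0.84 in M-BSG and 0.39 in M-BSG-Hot. It was lower in M-BSG-Hot than in BSG (log2 fold change -0.54, adjusted p = 0.0135) and than in M-BSG (-0.44, adjusted p = 0.0473). SIRT1, a deacetylase that prolongs binding of HSF1 to DNA, rose by 0.53 in BSG and 0.59 in M-BSG. HSF4, the factor of the lens, fell by 0.74 in BSG and by 0.85 in M-BSG-Hot. In M-BSG 1 gene was lower at an unadjusted p under 0.05 and 0 by DESeq2 and limma.

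Genes most like a called member were sought among 10878 tested genes whose mean reached 5 CPM, as the smallest root mean square difference between centred log2 CPM over the 12 libraries. For HSP90AB1 they were DRG1 (0.0314), HSPA8 (0.0394), the constitutive HSP70, and TIPIN (0.0433), where the median gene differed by 0.207. For HSP90AA1 they were SP100, VAPA and GDI2 (0.0312 to 0.0365), for HSPH1 MARCHF5, ERCC6L and F3 (0.0639 to 0.0716), and for BAG3 MTMR14, RBM23 and DAXX (0.0431 to 0.0485). HSPE1 lay nearest to SLIRP, NDUFB11 and SNRPE (0.0928 to 0.104). For HSPB8 the nearest genes, ZSCAN32, TMEM79 and ARMC7, were still 0.483 to 0.521 away, where the median gene was at 0.726, so no close match was found for it.

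**Figure D5:**
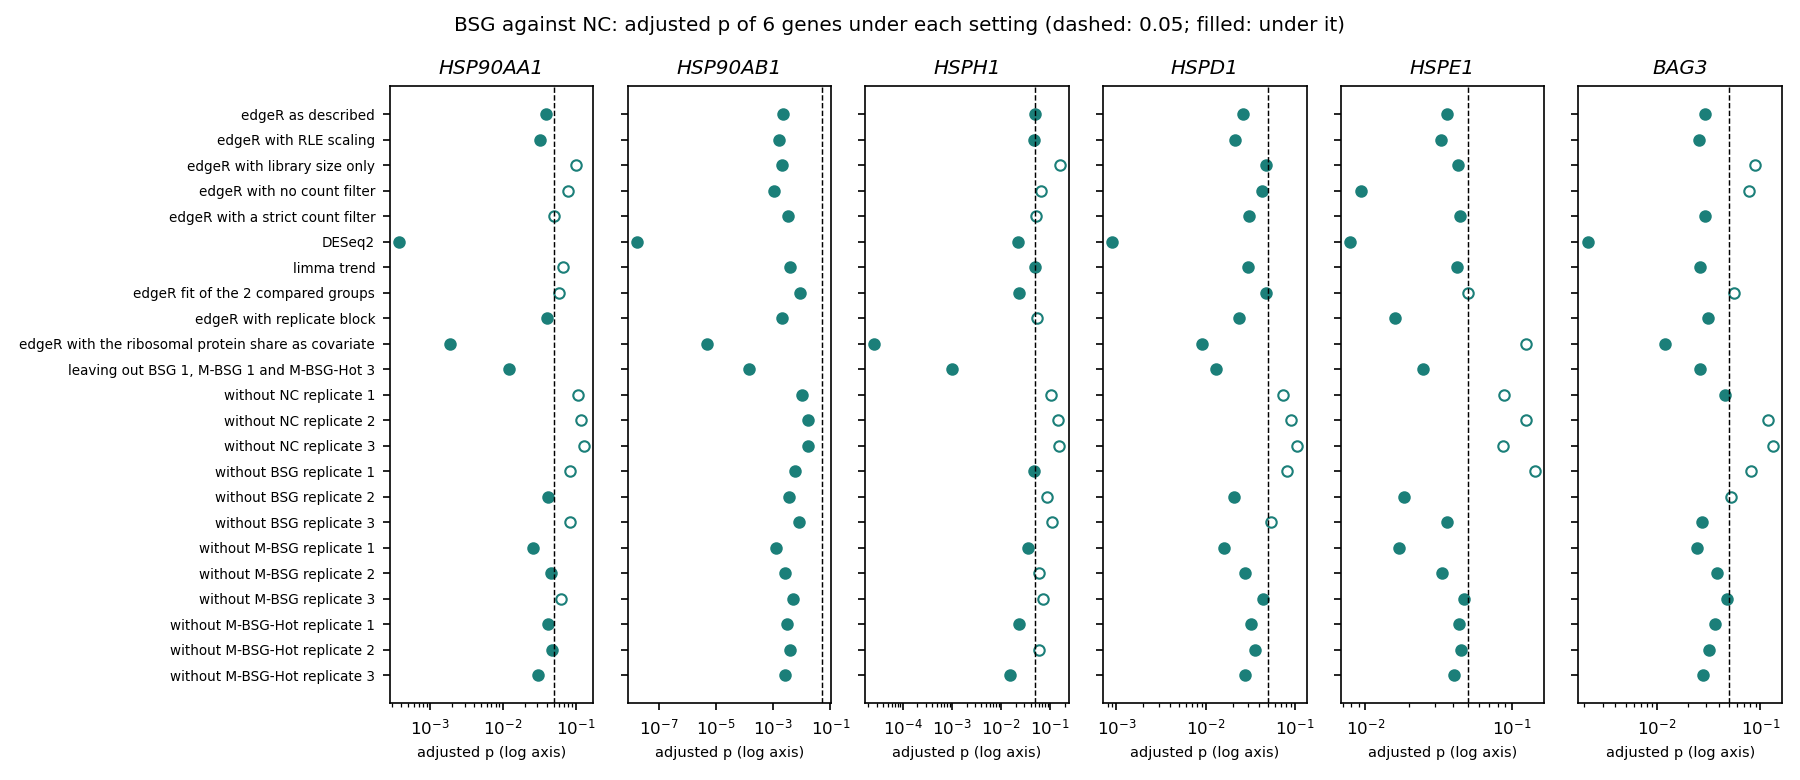
Adjusted p (log axis) of the 6 genes higher in BSG than in NC under the edgeR fit described and 22 alternatives; the dashed line is 0.05 and filled points lie under it. HSP90AB1 is filled throughout, and the other 5 cross the line in 5 to 12 alternatives each.

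Libraries of BSG and NC did not overlap for 7 of the 9 tested genes, where 38.7% of all tested genes did not. The number was 6 for M-BSG against NC (27.5% of all genes) and 4 for M-BSG-Hot against NC (28%). In M-BSG against BSG 4 genes, HSP90AA1, HSPH1, HSPB8 and BAG3, were lower without overlap, as were 4.82% of all genes. In M-BSG-Hot against BSG 3 were, HSP90AA1, HSP90AB1 and HSPD1 (8.87% of all genes). In M-BSG-Hot against M-BSG 3 were higher without overlap, HSPB8, BAG3 and HSF1 (6.28% of all genes).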

How the data were processed

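The deposited data were, for each of 12 libraries, raw counts per gene symbol and FPKM, which the authors derived from the same counts: 100% of the FPKM values above 0 equal the count over the library total and a whole-number gene length (relative tolerance 1e-06). RNA was taken with an RNeasy kit and 1.3 ug went into each SMARTER mRNA-Seq library, per the labels' protocols. The sources used here give no aligner, counter or strand setting. GRCm38 and mm10, names of a mouse assembly, are listed in the submitters' processing notes.

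Counts were tested with edgeR 4.0.16 (R 4.3.3): TMM, filterByExpr with a minimum count of 10 (15407 genes kept), then glmQLFit on the 12 libraries together, 1 mean for each group, and glmQLFTest for 6 comparisons. Genes are called at a Benjamini-Hochberg adjusted p under 0.05 over all genes tested. The SE is the log2 fold change divided by the root of the F statistic, and 95% intervals use it with the fit's degrees of freedom and are approximate. Total counts were 34434993 to 38163152 per library, and Wilson intervals and the limit of 3 counts cover counting error only. Replicate pairs differed by a chi-square of 3.37 to 60.9 per degree of freedom, so none was a copy of another. The highest value of each treated group was in a pair with BSG 1 (60.9), M-BSG 1 (56.2) or M-BSG-Hot 3 (40.4). All 12 libraries were kept. Alternatives were other scalings and filters, DESeq2 1.42.0, limma 3.58.1, a fit of 2 groups, a replicate block, the ribosomal protein share as a covariate, and libraries left out. The edgeR script was tested on simulated data.

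The 10 genes and all lists were chosen with earlier results of these data known. Named beside the 10 are the genes of each list with the smallest adjusted p that passed (at most 4 for each comparison), genes that overlap a member, and the 3 genes nearest to each called member; those of HSPD1 are not reported here. Markers are given as levels only.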

Additional observations from a re-analysis of the deposited data

How the results depend on the processing

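The 54 tested values of the 9 genes were recomputed under 22 alternatives, giving 1182 values. Of these 1124 kept their side of the threshold, 46 lost a call, 12 gained one and 0 turned the direction of a call; in 30 the sign differed between values that passed in neither. In BSG against NC the number of the 10 genes called higher was 6, and 3 with library size only, 3 with no count filter and 3 in a fit of the 2 compared groups; leaving out 1 library gave 1 to 6. In M-BSG it was 1, and 4 with the ribosomal protein share as a covariate, with 0 to 1 when 1 library was left out; the 1 gene called lower there, HSPB8, was not tested under a strict filter, which gave 0. In M-BSG-Hot against NC it was 0, and 2 by DESeq2, 2 with the covariate and 1 without the 3 libraries of high ribosomal protein share. In M-BSG-Hot against BSG the number lower was 0, and 4 with the covariate (HSP90AA1, HSP90AB1, HSPH1 and HSPD1). Calls over all genes moved too. In BSG against NC 847 were higher, 574 with library size only, 921 with no count filter and 648 in the 2-group fit. Leaving out 1 library gave 424 to 1329. In M-BSG 496 were higher, and 1425 with the covariate. Leaving out 1 library there gave 295 to 635. In M-BSG-Hot against NC 215 were higher, 375 by DESeq2, 952 with the covariate and 451 without the 3 libraries. In M-BSG-Hot against BSG 116 were lower, and 477 with the covariate. The cause of these changes was not tested. With the replicate number as a block 5 of the 10 genes were called higher in BSG, without HSPH1. The other counts of the 10 did not move. Nothing in the labels says that the numbers pair the libraries. Deviations of same-numbered libraries correlated from -0.287 to 0.408. For 7 of 12 libraries the mean correlation with libraries of the other groups was highest at their own number. These values cannot tell whether same-numbered libraries share a culture or day. The number of genes with a heat shock element was 3, and 4 with 1 mismatch. The order of the 10 by FPKM in NC was the same with TMM-scaled totals. CRYAB, at 0 to 4 counts, and HSPB8, at 4 to 34, had the fewest counts of the 10, and HSPE1 came next at 335 to 733. The effect of depth was not tested.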

Other observations

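HSPE1 is among 213 genes that RefSeq lists as components of readthrough genes and that are in the tables. CRYAB overlaps the readthrough HSPB2-C11orf52 but is not a component of it. The median of their mean FPKM was 1.09, beside 3.43 for 16334 other protein-coding genes, and 27.2% of them lay under 0.1 FPKM, beside 22.3%. MOB4, the other component of the HSPE1-MOB4 readthrough, was at 0 to 4 counts in every library.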
